A study of Mus musculus with 6 samples.

Results

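Transcripts of 42 genes that build, sulfate and trim heparin and chondroitin sulfate chains, together with Srgn, the core protein that carries these chains in the granule, were followed in mast cells of fetal mouse skin. The 42 genes were taken by symbol, and all 42 had a row among the 55809 gene rows of the count tables. Mast cells had been sorted by flow cytometry at embryonic day 18.5 as cells positive for CD45, CD117 and ST2 and negative for F4/80 and CD64, and polyadenylated RNA was sequenced. All fetuses were C57BL6J, of both sexes, and no engineered allele is named in the labels. In the prenatal stress group the dams had been restrained in tubes under bright light in 3 sessions of 30 minutes a day. The sessions ran from embryonic day 13 to 18 in one account and from 13.5 to 18.5 in another. Control dams were left alone. Each group had 3 libraries, each from a pool of 4 mice and named below by the number of its pool. The p-values rest on the spread from pool to pool. How many litters a pool drew on was not stated, so pools of a group may share litters and may not be independent.

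Glycosaminoglycan chains start on a serine of a core protein with a linker of xylose, a pair of galactoses and a glucuronic acid. From there the chain is extended either as heparan, which N-sulfation, epimerisation and O-sulfation turn into heparan sulfate or, when dense, heparin, or as chondroitin, which is sulfated by its own enzymes. In mast cells most chains sit on serglycin and hold positively charged proteases and amines in the granule, and heparin is typical of connective tissue mast cells.

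The libraries held 51710555 to 74735139 counts assigned to genes. Levels are CPM, read counts scaled to library size with factors from trimmed means (TMM), given as mean ± SD of 3 pools. Log2 fold changes are prenatal stress over control, ± standard error. P-values come from the quasi-likelihood test of edgeR and were adjusted by the Benjamini-Hochberg method over the 16716 genes tested, with a threshold of 0.05. Over all genes tested, 4.34% were called higher and 1.85% lower. The mast cell label was checked on 7 markers, all of which had reads and log2 fold changes above 0. Of the 7, 4 were called higher, namely Il1rl1, Ms4a2, Cpa3 and Fcer1a, the last from 5.76 ± 0.454 CPM to 27.6 ± 11.2 (log2 fold change 2.26 ± 0.29, adjusted p = 0.00666), and Kit, Hdc and Gata2 did not pass; Kit, the gene of CD117, went from 1818 ± 158 CPM to 2126 ± 220.3 (log2 fold change 0.23 ± 0.096, adjusted p = 0.187). Macrophage transcripts were also present: the summed CPM of 16 macrophage markers was 7018, 8019 and 7961 in control pools 1, 2 and 3 and 5735, 5282 and 8209 in stress pools 1, 2 and 3. Stress pools 1 and 2 thus lay below all controls and stress pool 3 above them. All 16 had reads, among them Adgre1 and Fcgr1, the genes of F4/80 and CD64, which stood at 409 ± 29.2 CPM in the controls against 305 ± 87.1 after stress and at 78.9 ± 6.27 CPM in the controls against 66.9 ± 9.58 after stress. Of the 16, 14 had log2 fold changes below 0 and 2 above (median -0.34), and 1 was called lower (Cx3cr1) and 1 higher (Cd68). An unadjusted p under 0.05 was found in 9 of the 16, against 24.8% of all genes tested. The summed CPM of the 7 mast cell markers, most of it from Cpa3 and Hdc, was 37495 to 46358 in the controls and 55485 to 66116 after stress, and the groups did not overlap. Markers of other cells were low: summed CPM was at most 212 for fibroblasts, 51.6 for endothelium and 12.1 for keratinocytes. That of pigment and Schwann cells was 10.9 to 15.4 in the controls and 19.9 to 51.4 after stress. The sum of lymphoid markers was 25.7 to 47.4 in the controls and 51.9 to 60.9 after stress. Of the 5 lymphoid markers tested, Il7r was called higher (22.0 ± 4.01 CPM to 54.1 ± 4.79). Trbc2 was called lower (4.85 ± 4.92 CPM to 0.285 ± 0.154), and 3 were not called. In such bulk samples, more cells of a type and more RNA per cell cannot be told apart.

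Of the 42 genes, 40 passed the filter on low counts, and of these 6 were higher after prenatal stress, 1 was lower and 33 did not pass the test. The genes called higher were Srgn, the heparan polymerase Ext1, the heparan sulfotransferases Hs3st1, Hs3st3b1 and Hs6st2, and the chondroitin-initiating enzyme Csgalnact2. The gene called lower was the chondroitin synthase Chsy1. Among all genes tested 6.19% were called, 4.34% higher and 1.85% lower, and among the 40 it was 17.5%, 15.0% higher and 2.50% lower. All stress libraries lay above all controls in 14 of the 40 (35.0%, against 16% of all genes tested) and below them in 4 (10.0%, against 14.5%), and 30.6% of all genes tested lay apart in one direction or the other. The median log2 fold change was 0.10 over the 40 and -0.0039 over all genes tested. With 1 library left out, the counts higher and lower were 2 and 0, 1 and 0, and 1 and 0 without control pools 1, 2 and 3. Of all genes, 2.69%, 1.33% and 2.27% were called in these fits. The counts higher and lower were 4 and 1, 1 and 0, and 11 and 3 without stress pools 1, 2 and 3. Of all genes, 2.67%, 1.14% and 15.4% were called there. Of the 40 values, 29 were above 0 with TMM scaling and 19 with library totals alone, a scaling that moves the median of all genes to -0.12; the directions below are relative to TMM, and those of the 7 called genes were the same under both.

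**Figure D1:**
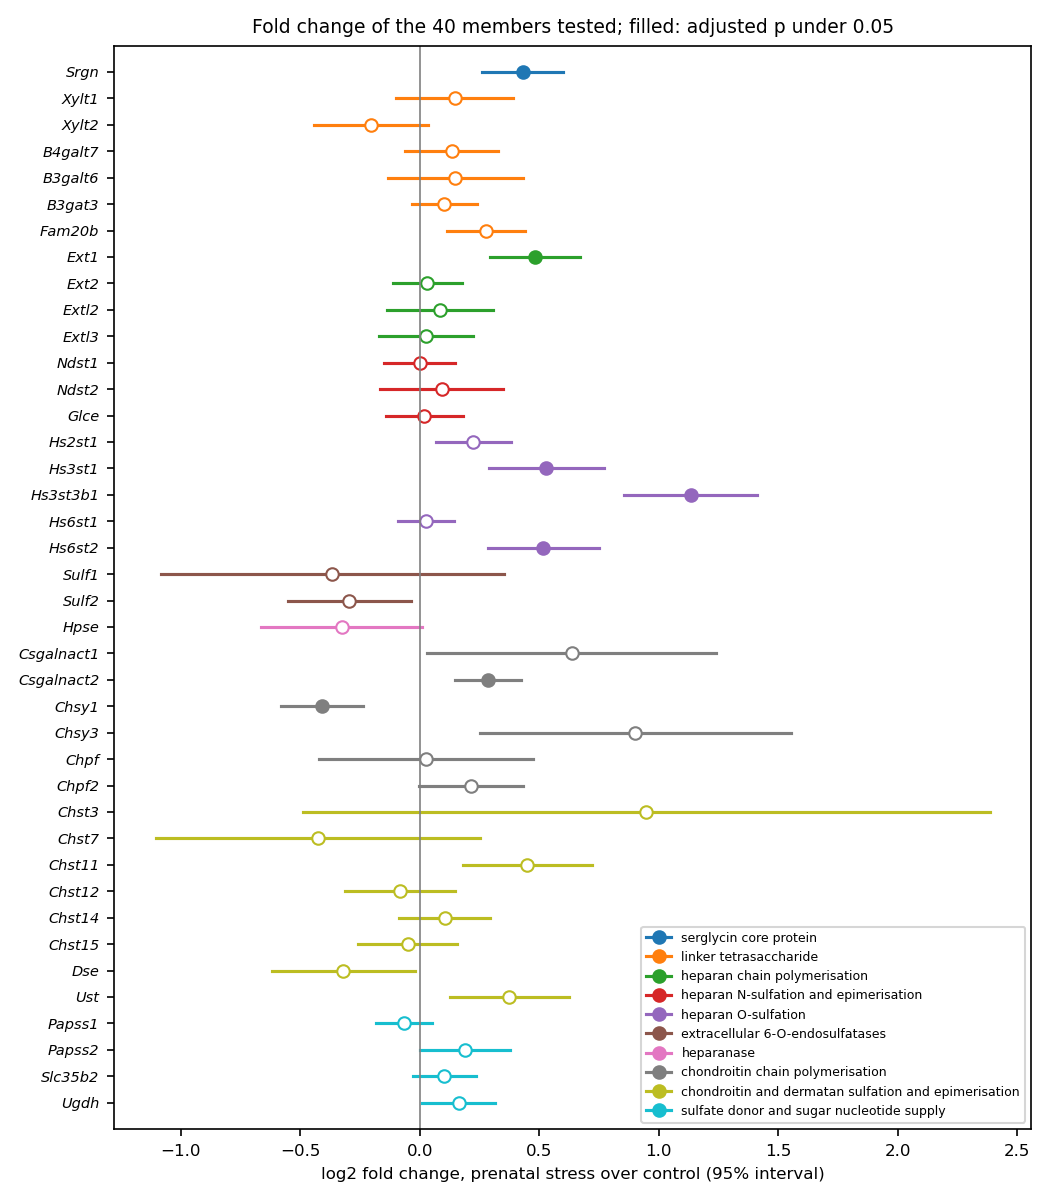
Log2 fold change (prenatal stress over control, x axis) with its 95% interval for the 40 genes tested, coloured by role; filled points passed an adjusted p of 0.05. Hs3st3b1 lies farthest to the right of the filled points at 1.13, and Chsy1 at -0.41 is the filled point to the left of 0.

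Serglycin itself rose. Srgn was at 2542, 2378 and 2641 CPM in control pools 1, 2 and 3 and 3478, 3559.9 and 3148 in stress pools 1, 2 and 3. All stress libraries lay above all controls, and stress pool 3 was the lowest of the 3. The mean rose from 2520.1 ± 133 CPM to 3395 ± 218 (log2 fold change 0.43 ± 0.075, adjusted p = 0.0175), a 1.35-fold difference. By reads, with no adjustment for length, Srgn ranked 10 among all gene rows, and it took 0.256% to 0.269% of all assigned counts in the controls and 0.303% to 0.339% after stress. The call ended without control pool 1 (adjusted p = 0.0604), 2 (0.0561) or 3 (0.0504) or stress pool 2 (0.0684), and with the mean log2 level of the macrophage markers as a covariate the value was 0.35 (adjusted p = 0.0588). In the same libraries the log2 fold changes of the 7 mast cell markers ran from 0.23 (Kit) to 2.26 (Fcer1a), and their median, 0.45, was close to the value of Srgn. Whether Srgn differed from them, and the part of mast cell content in its rise, was not tested.

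RefSeq lists 2 transcription starts for Srgn, and the counts per gene do not say which was used. The 250 bases before each start (RefSeq, GRCm38.p6, minus strand, 5′ to 3′) are shown because Srgn is the most abundant of the 42 transcripts. Capitals mark matches to the letters AGAACA, a half-site of the glucocorticoid receptor, on either strand; the match is a description and not a site.
Srgn, upstream start, chr10:62527446-62527695: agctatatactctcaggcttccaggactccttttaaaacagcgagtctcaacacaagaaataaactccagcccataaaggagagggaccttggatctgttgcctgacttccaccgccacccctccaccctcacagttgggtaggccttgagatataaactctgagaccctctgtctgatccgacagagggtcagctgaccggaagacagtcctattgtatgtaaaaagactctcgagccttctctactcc
Srgn, downstream start, chr10:62507758-62508007: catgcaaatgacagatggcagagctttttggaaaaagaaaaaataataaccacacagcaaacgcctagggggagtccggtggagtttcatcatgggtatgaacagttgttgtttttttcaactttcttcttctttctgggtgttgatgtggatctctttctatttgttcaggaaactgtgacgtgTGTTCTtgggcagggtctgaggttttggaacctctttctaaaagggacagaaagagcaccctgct
The upstream window held none of the 6 motifs searched on both strands, which were the GATA core GATAA, the E-box CACGTG and its variant CATGTG, the AP-1 site TGANTCA, the cyclic AMP response element TGACGTCA and the half-site AGAACA. The downstream window held AGAACA once, as its reverse complement. Of all 32851 RefSeq windows of this length, 16.1% held AGAACA, as did 4.44% of the 45 windows of the 35 of the 42 genes found in the table. For GATAA, the core bound by GATA factors, these shares were 22.6% and 17.8%. Of the 5 higher genes in the table, 0 had a window with GATAA.

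**Figure D2:**
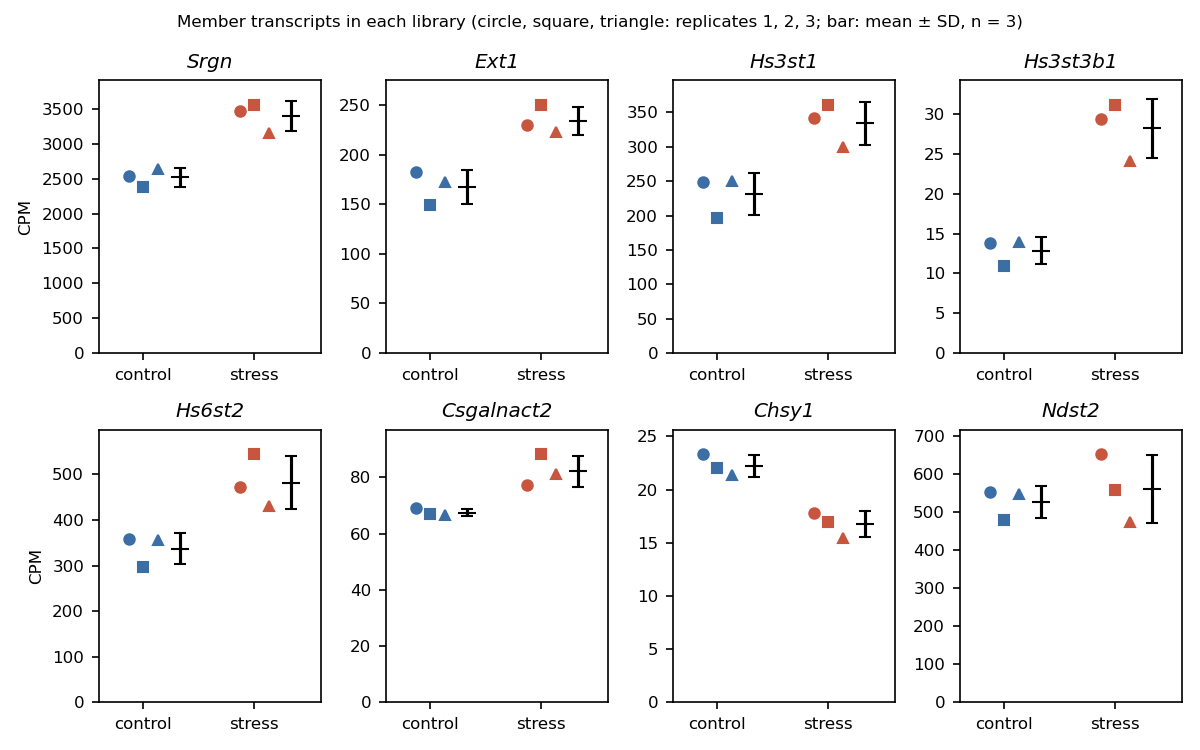
CPM (y axis, from 0) in each library for the 7 called genes and Ndst2, controls in blue and prenatal stress in red, with mean ± SD (n = 3) in black. The groups are apart for the 7 called genes, with Chsy1 lower after stress, and overlap for Ndst2.

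The enzymes of the linker did not pass the test. Xylt1 and Xylt2, the xylosyltransferases that put the first sugar on the core protein, were at 112 ± 13.3 CPM in the controls against 124 ± 14.9 after stress and at 16.3 ± 0.998 CPM in the controls against 14.2 ± 1.93 after stress (adjusted p = 0.434 and 0.265). Xylt2 was lower in every stress library than in any control, and Xylt1 overlapped. Fam20b, the kinase that phosphorylates the xylose, came nearest to a call. It was at 125, 112 and 122 CPM in the controls and 149, 154 and 133 after stress (log2 fold change 0.28 ± 0.072, adjusted p = 0.0564, 95% interval 0.11 to 0.44), with no overlap between groups. The galactosyltransferase genes B4galt7 and B3galt6 and the glucuronyltransferase gene B3gat3, which complete the linker, had log2 fold changes of 0.13, 0.15 and 0.10 (adjusted p from 0.326 to 0.495). Per kilobase of exon the 6 linker genes ranged from 1.27 (B3galt6) to 13.7 CPM (Fam20b) in the controls.

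Of the genes that extend the heparan chain, Ext1 rose and Ext2, its partner in the polymerase complex, did not pass. Ext1 was at 182, 149 and 172 CPM in control pools 1, 2 and 3 and 229.7, 250.1 and 223 in stress pools 1, 2 and 3. The lowest stress library was above the highest control, and the mean went from 168 ± 17.1 CPM to 234 ± 14.1 (log2 fold change 0.48 ± 0.083, adjusted p = 0.0172). Ext2 was at 71.2, 64.6 and 67.9 CPM in the controls and 65.0, 72.6 and 70.8 after stress, with overlapping groups (log2 fold change 0.032 ± 0.063, adjusted p = 0.800, 95% interval -0.11 to 0.18). The ratio of Ext1 to Ext2 per length was 2.32, 2.09 and 2.30 in the controls and 3.21, 3.12 and 2.86 after stress. The call of Ext1 ended without control pool 2 (adjusted p = 0.0506), control pool 3 (0.0553) or stress pool 2 (0.0707). It held with the macrophage level as covariate (0.39, adjusted p = 0.0376). Extl3, which adds the first glucosamine of heparan, and Extl2, another exostosin-like transferase, were at 0.025 and 0.084 (adjusted p = 0.888 and 0.640).

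No change was detected in the N-sulfation and epimerisation step. Ndst2, the N-deacetylase/N-sulfotransferase on which mast cell heparin depends, was at 552, 479 and 549 CPM in control pools 1, 2 and 3 and 652, 559 and 474 in stress pools 1, 2 and 3. Stress pool 1 was the highest of all libraries and stress pool 3 the lowest (log2 fold change 0.092 ± 0.11, adjusted p = 0.660, 95% interval -0.16 to 0.35). Ndst1, the widely expressed form, was at 103 ± 3.24 CPM in the controls against 103 ± 7.80 after stress (95% interval of the log2 fold change -0.15 to 0.15). The per-length ratio of Ndst2 to Ndst1 was 9.47, 8.75 and 9.76 in the controls and 10.8, 9.83 and 9.12 after stress. Glce, the epimerase that turns glucuronic into iduronic acid, was at 13.4 ± 0.606 CPM in the controls against 13.6 ± 0.379 after stress (95% interval -0.14 to 0.18). Ndst3 was below the filter, with 2 to 9 reads in the controls and 3 to 23 after stress.

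**Figure D3:**
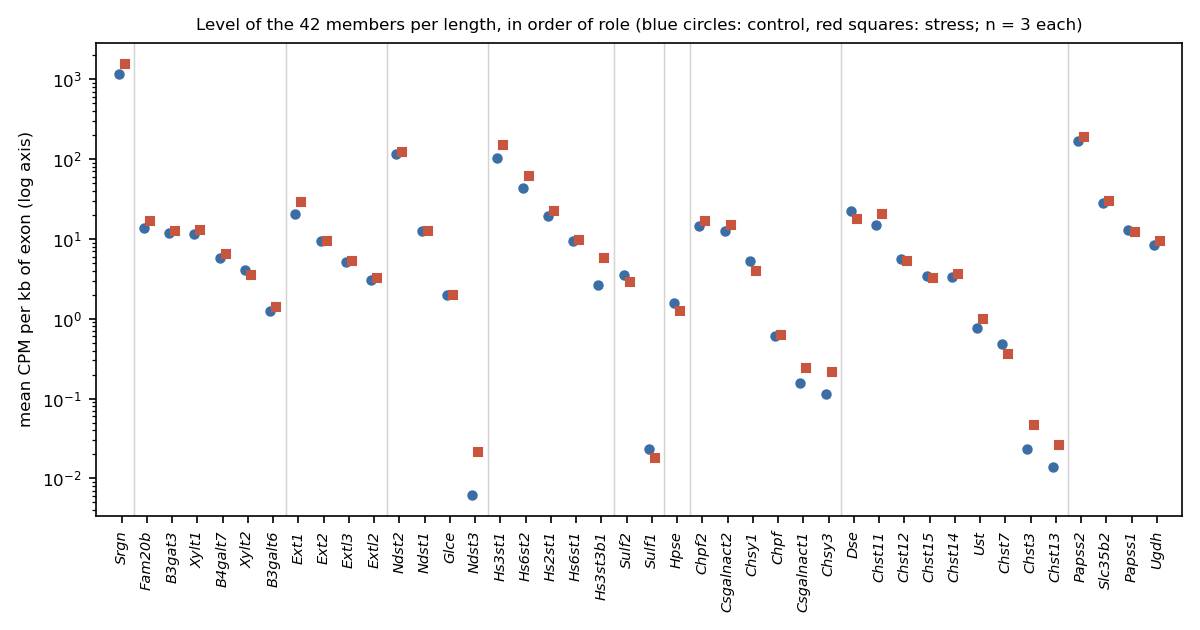
Mean CPM per kilobase of annotated exon (y axis, log scale) of the 42 genes, ordered by role and by control level within a role; blue circles are controls and red squares prenatal stress (n = 3 each). Srgn stands at 1148 in the controls, followed by Papss2, Ndst2 and Hs3st1 at 167, 116 and 104.

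Of the 5 heparan O-sulfation genes, 3 were called, all higher, against 4.34% of all genes tested called higher. The steps hold few genes each and were not compared by a test. With 1 library left out, Hs3st1 and Hs6st2 passed only in the fit without stress pool 3. Hs3st3b1, a 3-O-sulfotransferase, had the largest fold change of the 7 called genes. It was at 13.8, 10.9 and 13.9 CPM in control pools 1, 2 and 3 and 29.4, 31.2 and 24.1 in stress pools 1, 2 and 3. The lowest stress library, pool 3, lay above the highest control. The mean rose from 12.8 ± 1.71 CPM to 28.2 ± 3.68, or 2.19-fold (log2 fold change 1.13 ± 0.12, adjusted p = 0.00334). The call held whichever of the 6 libraries was left out, with log2 fold changes from 1.03 to 1.23 and adjusted p up to 0.0233, and with the macrophage level as covariate (0.95, adjusted p = 0.00138).

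Hs3st3a1, which lies on the same chromosome and encodes a closely related 3-O-sulfotransferase, rose as well. It is not among the 42 genes and came from a list of further sulfation genes. It was at 13.7, 11.0 and 14.9 CPM in the controls and 28.0, 32.1 and 24.4 after stress (log2 fold change 1.09 ± 0.13, adjusted p = 0.00528). Read counts of the pair were close in every library: Hs3st3b1 had 1059, 639 and 788 in the controls and 1480, 1680 and 1339 after stress, and Hs3st3a1 had 1053, 649 and 845 in the controls and 1414, 1731 and 1356 after stress. Of the 75-base stretches of Hs3st3b1 transcripts, 7.05% occur in another gene, most of them in Hs3st3a1, and for Hs3st3a1 the share is 8.82%, most of it with Hs3st3b1. In addition, 32.9% of the exon length of Hs3st3a1 lies under an opposite-strand gene (F930015N05Rik). With the strand setting of the counting unknown, reads in that stretch may have been counted or left out as ambiguous. The 250 bases before the start of both genes are shown because both rose (RefSeq, GRCm38.p6, 5′ to 3′; Hs3st3b1 on the minus and Hs3st3a1 on the plus strand). Capitals mark matches to the 6 motifs named above.
Hs3st3b1, chr11:63922285-63922534: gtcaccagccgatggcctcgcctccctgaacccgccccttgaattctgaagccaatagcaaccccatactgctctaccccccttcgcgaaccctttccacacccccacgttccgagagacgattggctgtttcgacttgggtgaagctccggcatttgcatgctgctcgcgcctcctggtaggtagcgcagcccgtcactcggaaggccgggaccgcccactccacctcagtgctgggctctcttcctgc
Hs3st3a1, chr11:64435082-64435331: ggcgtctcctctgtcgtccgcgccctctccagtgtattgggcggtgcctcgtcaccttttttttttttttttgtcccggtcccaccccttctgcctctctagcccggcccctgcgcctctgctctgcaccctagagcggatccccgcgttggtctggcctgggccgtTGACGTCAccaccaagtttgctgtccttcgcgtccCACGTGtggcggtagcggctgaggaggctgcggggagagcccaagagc
The Hs3st3b1 window held none of the 6. The Hs3st3a1 window held TGACGTCA, the cyclic AMP response element, which is in 1.55% of all windows, and CACGTG, an E-box, which is in 6.02%.

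Hs3st1, the 3-O-sulfotransferase that makes the antithrombin-binding form of heparin, rose as well. It was at 249, 196 and 250.1 CPM in control pools 1, 2 and 3 and 342, 361 and 300.3 in stress pools 1, 2 and 3. The groups did not overlap, control pool 2 was the lowest library, and the mean went from 232 ± 31.1 CPM to 334 ± 31.1 (log2 fold change 0.53 ± 0.11, adjusted p = 0.0278). Per length it was the more abundant: the ratio of Hs3st1 to Hs3st3b1 was 39.7, 39.7 and 39.7 in the controls and 25.6, 25.5 and 27.5 after stress. The call of Hs3st1 ended without control pool 1 (adjusted p = 0.0527), 2 (0.0728) or 3 (0.0586) and without stress pool 1 (0.0747) or 2 (0.106). With the macrophage level as covariate it was 0.39 (adjusted p = 0.0703).

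Hs6st2, a 6-O-sulfotransferase, rose, while Hs6st1, which adds the same group, did not pass. Hs6st2 was at 358, 297 and 355 CPM in control pools 1, 2 and 3 and 472, 544 and 431 in stress pools 1, 2 and 3, with stress pool 2 the highest and no overlap. Its mean went from 337 ± 34.3 CPM to 482 ± 57.3 (log2 fold change 0.52 ± 0.10, adjusted p = 0.0257). The 6 values of Hs6st1 lay between 51.5 and 55.0 CPM (log2 fold change 0.025 ± 0.051, adjusted p = 0.803, 95% interval -0.091 to 0.14). The call of Hs6st2 ended without control pool 1 (adjusted p = 0.0550), 2 (0.0962) or 3 (0.0658) and without stress pool 1 (0.0654) or 2 (0.0869). Its value with the macrophage level as covariate was 0.37 (adjusted p = 0.0634). The 2-O-sulfotransferase gene Hs2st1 did not pass. It was at 162, 147 and 163 CPM in the controls and 183, 196 and 172 after stress, with each stress library above each control (log2 fold change 0.22 ± 0.069, adjusted p = 0.0875). Without stress pool 3 it passed (0.26, adjusted p = 0.0261).

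Enzymes that edit or cut finished heparan chains were not called. Sulf2, an endosulfatase that removes 6-O-sulfate outside the cell, was at 19.4, 22.4 and 19.9 CPM in control pools 1, 2 and 3 and 15.2, 15.3 and 19.8 in stress pools 1, 2 and 3. Hpse, the heparanase that cuts heparan chains, was at 4.64, 6.04 and 5.79 CPM in the controls and 4.01, 3.95 and 5.13 after stress. In both genes stress pools 1 and 2 were below all controls and stress pool 3 was within their range (adjusted p = 0.152 and 0.211). The summed macrophage markers were likewise below all controls in stress pools 1 and 2, but in stress pool 3 they were above all controls. With the macrophage level as covariate the values went from -0.29 to -0.12 for Sulf2 and from -0.33 to -0.11 for Hpse; the part of macrophages in either was not tested. Without stress pool 3, Sulf2 was called lower (-0.44, adjusted p = 0.00883). Sulf1 had 10 to 19 reads per library.

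**Figure D4:**
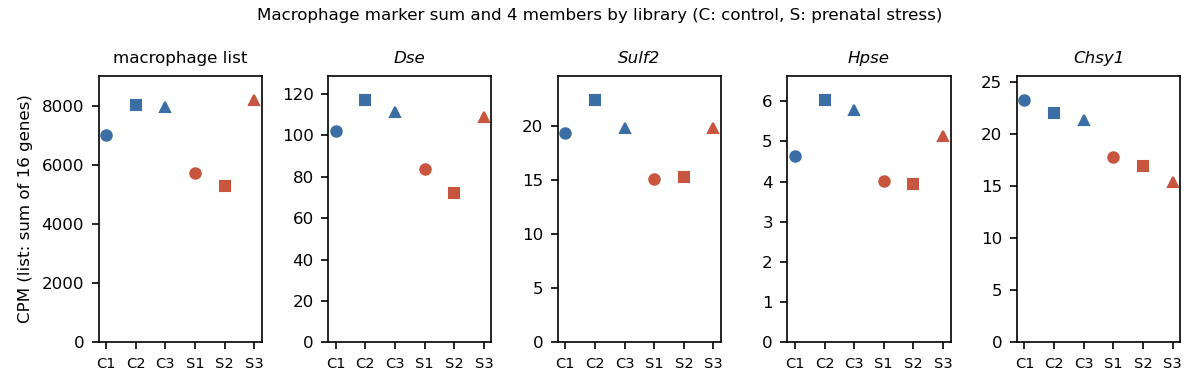
Summed CPM of 16 macrophage markers and CPM of Dse, Sulf2, Hpse and Chsy1 (y axes, from 0) in control libraries C1 to C3 and stress libraries S1 to S3, whose numbers carry no order. Stress libraries 1 and 2 are the lowest 2 in every panel except that of Chsy1, where stress library 3 is the lowest at 15.5.

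On the chondroitin side, 2 of the 6 genes that start and extend the chain were called, in opposite directions. Of all genes tested, 4.34% were called higher and 1.85% lower. Csgalnact2, which adds the galactosamine that commits a linker to chondroitin, was at 69.1, 66.8 and 66.6 CPM in control pools 1, 2 and 3 and 77.4, 88.2 and 81.1 in stress pools 1, 2 and 3. The mean rose from 67.5 ± 1.38 CPM to 82.2 ± 5.49 (log2 fold change 0.28 ± 0.061, adjusted p = 0.0329), and no stress library overlapped the controls. The call ended without control pool 1 (adjusted p = 0.0844), 2 (0.138) or 3 (0.111) or stress pool 2 (0.121), with library totals alone (0.17, adjusted p = 0.0844) and with the macrophage level as covariate (0.24, adjusted p = 0.0906). Chsy1, a chondroitin synthase that polymerises the chain, was at 23.3, 22.0 and 21.3 CPM in control pools 1, 2 and 3 and 17.8, 17.0 and 15.5 in stress pools 1, 2 and 3. It fell from 22.2 ± 1.01 CPM to 16.8 ± 1.20 (log2 fold change -0.41 ± 0.076, adjusted p = 0.0211), and stress pool 3 had the lowest value. The call of Chsy1 ended without control pool 1 (adjusted p = 0.0732), 2 (0.0850) or 3 (0.0559) or stress pool 2 (0.0756). With the macrophage level as covariate it was -0.50 (adjusted p = 0.0131).

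The other chondroitin chain genes did not pass. Chpf2, a partner of the synthases, was the most abundant of the 6 per length, at 14.6 CPM per kb in the controls and 17.0 after stress (adjusted p = 0.206), but 44.1% of its exon length is overlapped by genes on the opposite strand. Chpf, its relative, had 112 to 160 reads per library. Chsy3 and Csgalnact1 were scarce, at 0.822 ± 0.0972 CPM in the controls against 1.54 ± 0.611 after stress and at 0.795 ± 0.0980 CPM in the controls against 1.23 ± 0.368 after stress. Chsy3 was highest in stress pool 2 (2.25 CPM against 1.25 and 1.13 in pools 1 and 3). The summed CPM of 8 fibroblast markers was 212 in that library and between 81.1 and 103 in the others, and its part in Chsy3 was not tested. Both passed without stress pool 3, Chsy3 at 1.08 (adjusted p = 0.0296) and Csgalnact1 at 0.86 (0.0316).

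None of the 8 chondroitin and dermatan sulfation and epimerisation genes tested was called. An unadjusted p under 0.05 was found in 3 of the 8, against 24.8% of all genes tested. The 3 were Chst11, Dse and Ust. Chst11, the main chondroitin 4-O-sulfotransferase, was at 93.5, 70.6 and 85.6 CPM in control pools 1, 2 and 3 and 119, 125 and 97.5 in stress pools 1, 2 and 3. The groups did not overlap, and stress pool 3 was close to control pool 1 (log2 fold change 0.45 ± 0.12, adjusted p = 0.0580). Dse, the epimerase that turns chondroitin into dermatan, was at 102, 117 and 111 CPM in control pools 1, 2 and 3 and 83.6, 72.3 and 109 in stress pools 1, 2 and 3. Stress pool 3 was within the range of the controls and stress pools 1 and 2 were below it (log2 fold change -0.32 ± 0.13, adjusted p = 0.177). With the macrophage level as covariate Dse was at -0.075, and without stress pool 3 it was called lower (-0.50, adjusted p = 0.00395). Ust, which sulfates the uronic acid, was at 3.26, 3.71 and 3.56 CPM in the controls and 4.60, 4.44 and 4.59 after stress with no overlap (log2 fold change 0.37 ± 0.11, adjusted p = 0.0792).

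Chst15, which makes the disulfated chondroitin known from mast cells, was at 22.9 ± 1.12 CPM in the controls against 22.1 ± 2.58 after stress. Its log2 fold change had a 95% interval of -0.26 to 0.15, and 17.9% of its exon length is overlapped on the opposite strand. Chst12, a further 4-O-sulfotransferase, and Chst14, its dermatan counterpart, were at -0.084 and 0.10 (adjusted p = 0.652 and 0.480). The 6-O-sulfotransferase genes Chst3 and Chst7 were scarce, with 4 to 32 and 27 to 73 reads per library. Chst13, a 4-O-sulfotransferase, was below the filter with 0 to 4 reads.

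None of the 4 members that supply the sulfate donor and UDP-glucuronic acid was called. Papss2, which makes the donor phosphoadenosine phosphosulfate, was the second most abundant of the 42 per length, at 167 CPM per kb in the controls and 189.9 after stress. It was at 657, 562 and 641 CPM in control pools 1, 2 and 3 and 715, 758 and 647 in stress pools 1, 2 and 3, and stress pool 3 lay within the range of the controls (log2 fold change 0.19 ± 0.084, adjusted p = 0.203). Papss1, the other synthase, was at 39.1 ± 0.600 CPM in the controls against 37.3 ± 0.596 after stress, and the per-length ratio of Papss2 to Papss1 was 14.0, 11.9 and 13.2 in the controls and 15.5, 16.6 and 14.5 after stress. Slc35b2, the Golgi carrier of the donor, and Ugdh, which makes UDP-glucuronic acid, had log2 fold changes of 0.10 and 0.16 (adjusted p = 0.313 and 0.178).

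Further genes of the pathway were read from lists. Over all genes tested, 4.34% were called higher and 1.85% lower. Of 17 other genes of sugar nucleotide and sulfate supply tested, 2 were higher, 0 lower and 15 not called (median log2 fold change 0.13). Gfpt1, the first enzyme of the hexosamine route, went from 298 ± 29.0 CPM to 399 ± 29.7 (log2 fold change 0.42 ± 0.087, adjusted p = 0.0285), and Slc35a3, a Golgi carrier of UDP-N-acetylglucosamine, from 84.7 ± 1.12 CPM to 100.3 ± 5.41 (log2 fold change 0.24 ± 0.056, adjusted p = 0.0421). The call of Gfpt1 ended without control pool 2 (adjusted p = 0.0927) or 3 (0.0788) and without stress pool 1 (0.0722) or 2 (0.111). That of Slc35a3 ended in each fit without 1 library other than stress pool 3 (up to 0.160) and with library totals alone (0.13, adjusted p = 0.141). The macrophage covariate ended both, at 0.31 for Gfpt1 (adjusted p = 0.0807) and 0.18 for Slc35a3 (0.140). Of 8 other sulfation and chain genes tested, 2 were higher and 0 lower: Hs3st3a1, described above, and Has1, a hyaluronan synthase with 4 to 14 reads in the controls and 25 to 55 after stress (log2 fold change 2.30 ± 0.44, adjusted p = 0.0225). Without any 1 control or without stress pool 2, Has1 did not pass (adjusted p up to 0.0938). Chst1, a keratan sulfate sulfotransferase gene and the one of this list with the most reads, was at 183, 134 and 193 CPM in the controls and 254, 235 and 201 after stress, with no overlap (log2 fold change 0.44 ± 0.14, adjusted p = 0.0912).

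Of 19 other proteoglycan core protein genes tested, 2 were higher, 0 lower and 17 not called (median 0.28). The shares over all genes tested were 4.34% higher and 1.85% lower. Gpc5, a glypican, was at 5.72, 5.46 and 5.99 CPM in the controls and 8.47, 11.1 and 8.02 after stress (log2 fold change 0.68 ± 0.13, adjusted p = 0.0225). Hspg2, the core protein perlecan, was at 21.9, 18.0 and 20.1 CPM in the controls and 43.3, 46.2 and 23.4 after stress (log2 fold change 0.91 ± 0.22, adjusted p = 0.0464), with stress pool 3 near the controls. Both calls ended in each fit without 1 library other than stress pool 3, with adjusted p up to 0.108 for Gpc5 and 0.193 for Hspg2. Given the macrophage level as covariate, Gpc5 was at 0.51 (adjusted p = 0.0616) and Hspg2 at 0.40 (0.0478), and by limma-voom the call of Hspg2 ended (0.0686). Cd44, a surface receptor that can carry chondroitin sulfate and the gene of this list with the most reads, was at 638 ± 19.9 CPM in the controls against 726 ± 59.8 after stress (adjusted p = 0.161).

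Genes for the lysosomal breakdown of these chains moved in both directions. Glb1, beta-galactosidase, rose from 243 ± 43.7 CPM to 368 ± 17.8 (log2 fold change 0.60 ± 0.12, adjusted p = 0.0272). Arsb, the sulfatase that removes 4-O-sulfate from chondroitin, fell from 26.1 ± 1.06 CPM to 17.4 ± 3.30 (log2 fold change -0.59 ± 0.12, adjusted p = 0.0311). The call of Glb1 ended without control pool 3 (adjusted p = 0.0658), stress pool 1 (0.0600) or stress pool 2 (0.0983). For Arsb it ended without any 1 control or without stress pool 2 (up to 0.131). The macrophage covariate also ended both calls, at 0.56 for Glb1 (adjusted p = 0.0521) and -0.44 for Arsb (0.0772). Genes on the opposite strand overlap 39.9% of the exon length of Arsb. Ids, iduronate sulfatase and the gene of the list with the most reads, was at 520.3 ± 25.0 CPM in the controls against 648 ± 68.7 after stress (adjusted p = 0.0616). Of 11 granule components that serglycin holds or that accompany them, 4 were higher and 0 lower, against 4.34% and 1.85% of all genes tested. The 4 were the protease genes Mcpt4, Cpa3 and Cma1 and the amine transporter gene Slc18a2. Mcpt4 rose from 1620.3 ± 221 CPM to 3335 ± 669 (log2 fold change 1.04 ± 0.15, adjusted p = 0.00946) and passed in each of the 6 fits without 1 library. Cpa3, Cma1 and Slc18a2 (0.55, 0.40 and 0.40) passed in the fit without stress pool 3 and in none of the other 5, and none of these 3 passed with the macrophage covariate (adjusted p from 0.0897 to 0.165).

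**Figure D5:**
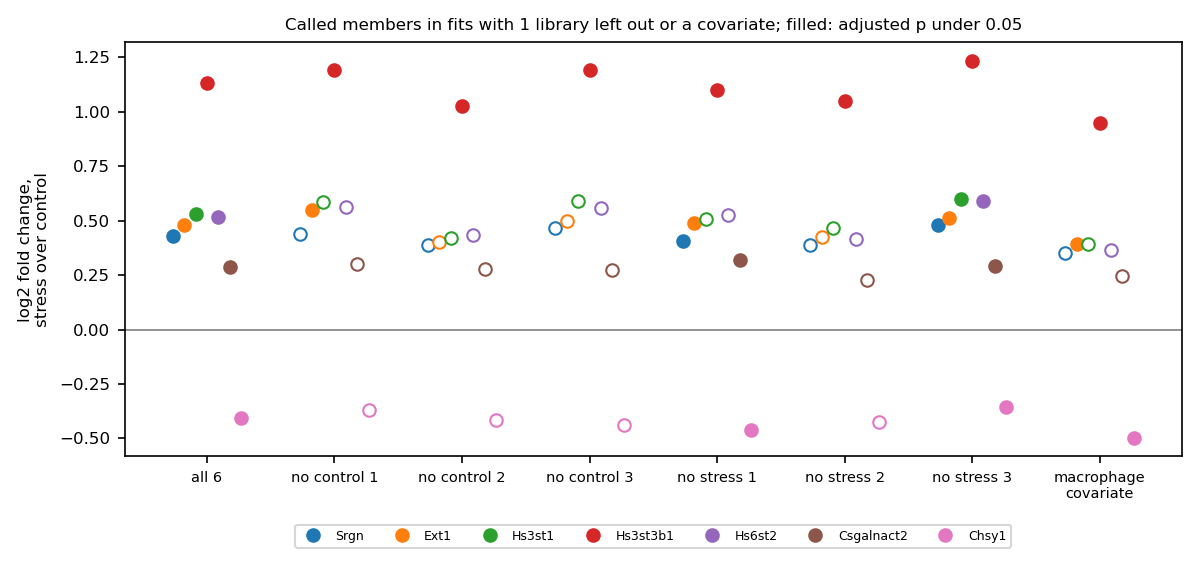
Log2 fold change (y axis) of the 7 called genes with all libraries, with each library left out and with the macrophage marker level as a covariate; filled points passed an adjusted p of 0.05. Hs3st3b1 is filled in all 8 columns, Ext1 in 5, and no gene crosses 0.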

How the data were processed

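Raw counts of reads per gene symbol were deposited by the authors, 1 table per library, with no normalization. Per the submitters' processing notes FastQC, STAR 2.4 and HTSeq 0.9.1 were used, and the builds GRCm39 and mm10 are named with no role. The strand setting of the counting is not given in the sources used here, nor is the annotation release, so genes overlapped on the opposite strand are uncertain; the library kit was stranded, per the labels' protocols. The 5 rows that name no gene were left out of library sizes and tests. Reads assigned to genes were 79.7% to 81.4% of those tallied, and the remainder fell in these rows. Groups and replicate numbers were taken from the sample titles.

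Genes were filtered with filterByExpr (minimum count 10), which kept 16716, and tested with edgeR 4.0.16 (quasi-likelihood test, TMM factors, R 4.3.3) over all of them, with no covariate. The standard error is the fold change divided by the root of the F statistic, intervals are 95%, and the common biological coefficient of variation was 10.4%. With 3 against 3 libraries an exact permutation test of 1 gene could not go below 0.1, and none was used. The members and lists were chosen with earlier results of these data known. Named were Srgn, Ndst2, every called member, the 12 members with the highest mean CPM and, in the other lists, up to 4 called genes and the gene with the most reads; further members were named within their role, and Fam20b, Chst11, Ust, Dse, Sulf2, Hpse, Chsy3 and Hs2st1 were described in full after their values were seen. Levels per kilobase used GENCODE M21 exon lengths (GRCm38), matched by symbol for 42 of 42 genes, which may differ from the annotation counted. Shared sequence was counted as 75-base stretches. Promoter windows came from a RefSeq table (GRCm38.p6), cut to the 250 bases before the start. The alternatives were other scaling factors, filters and tests (DESeq2 1.42.0, limma-voom with limma 3.58.1), the replicate number as a block, a macrophage covariate and each library left out. The test was tried on simulated data. Part of the list of lysosomal breakdown genes is not reported here.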

Additional observations from a re-analysis of the deposited data

How the results depend on the processing

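Of the 42 genes, 6 higher and 1 lower were called with RLE and upper-quartile factors and with limma-voom, with the same 7 genes each time; a stricter filter added Fam20b. With library totals only, 5 higher and 1 lower were called, and over all genes 2085 were called, 26.5% of them higher, against 1035 and 70.0% with TMM; 10 of the 40 values changed sign, none of a called gene. With no filter 9 members were higher, 2 lower (Dse added) and 1933 genes called, and with DESeq2 10 members were higher (Chst11, Chsy3, Fam20b and Hs2st1 added), 1 lower and 1969 genes called. The macrophage covariate left 2 higher (Ext1, Hs3st3b1), 1 lower (Chsy1) and 556 genes called. With 1 library left out, 1 to 11 members were higher, 0 to 3 lower and 196 to 2647 genes called; the lowest count over all genes came without stress pool 2, and the highest counts came without stress pool 3. Hs3st3b1 was the member called in all 6 of these fits. No called member changed direction under any of the 15 alternatives. The numbers of the replicates pair no pools by the labels, and same-numbered libraries correlated in their deviations from the group means at 0.0961, -0.0188 and 0.0698. The replicate block called 2 members higher (Ext1, Hs3st3b1), 1 lower (Chsy1) and 622 genes in all. It ended the calls of Srgn (adjusted p = 0.0569), Hs3st1 (0.0519), Hs6st2 (0.0574) and Csgalnact2 (0.0684). Genes with a mean from 0.226 to 1.18 CPM, such as Chst3, Chst7, Csgalnact1 and Chsy3, rest on at most 121 reads per library, which limits what could be detected in them. The cause of these shifts was not tested.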

Other observations

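Genes that carry out the same step were set side by side per length, as CPM per kilobase of exon; the pairs were chosen after the values were seen and no test was made. The ratio of Chsy1, a chondroitin synthase, to its relative Chsy3 was 43.6, 52.1 and 45.6 in the controls and 24.7, 13.1 and 23.6 after stress. Chsy1 alone was already below all controls in all stress libraries, and Chsy3 alone above them. Their ratio was therefore bound to lie apart and adds nothing to the single genes. Chsy3 itself had few reads. That of Chst11 to Chst12, both chondroitin 4-O-sulfotransferases, was 3.11, 2.36 and 2.54 in the controls and 3.62, 4.19 and 3.78 after stress, with all stress libraries above all controls. For the 6-O-sulfotransferase genes Hs6st2 and Hs6st1 it was 4.84, 4.10 and 4.72 in the controls and 6.09, 7.39 and 5.77 after stress, also with no overlap. Chst11 and Hs6st2 alone were already apart in the same direction, while Chst12 and Hs6st1 overlapped, so these ratios largely restate the single genes. The ratio of Csgalnact2 to Csgalnact1 was 92.0, 79.9 and 69.4 in the controls and 50.7, 56.3 and 93.8 after stress, and that of Xylt1 to Xylt2 3.24, 2.62 and 2.64 in the controls and 3.63, 4.59 and 2.83 after stress. The ratio of Chpf2 to Chpf was 33.2, 19.0 and 21.9 in the controls and 26.3, 25.0 and 31.3 after stress. For the ratios of Csgalnact2, Xylt1 and Chpf2 the groups overlapped.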
